A study of Mus musculus with 12 samples.

Results

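The genes of TGF-beta and BMP signalling were followed in the mouse lung at 4 ages. The set held the protein-coding genes whose symbols name the 3 TGF-beta ligands, the TGF-beta, BMP and activin receptors, the BMP, growth differentiation factor (GDF) and activin ligands, and the SMAD proteins, 46 of the 35275 genes in the deposited table. Gdf15, Acvrl1 and Bmp2k were left out of the set, so counts of ligands and receptors below cover the set only. Lungs came from male wild-type C57Bl/6J mice aged 3, 6, 12 and 24 months, with 3 mice per age and no treatment named in the labels. Minced lung tissue was used, so a lower level in this bulk RNA can come from fewer cells of a type or from less RNA per cell, and these cannot be told apart. Poly(A) RNA was sequenced, and 35 members held enough reads to be tested among 16042 genes.

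In this pathway a dimeric ligand brings together a type I and a type II receptor kinase on the cell surface. The type I receptor then phosphorylates receptor-activated SMAD proteins, which join the common SMAD4 and regulate genes in the nucleus, while SMAD6 and SMAD7 inhibit the signal. TGF-beta and activin receptors act mainly through SMAD2 and SMAD3, and BMP receptors through SMAD1, SMAD5 and SMAD9. TGF-beta is secreted in a latent form held in the extracellular matrix and is known in the lung for its part in matrix production and fibrosis, and BMP signalling for its part in vascular and airway homeostasis.

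Of the 3 TGF-beta ligands, Tgfb1 and Tgfb3 are shown first, since Tgfb1 was called higher at 24 months and Tgfb3 was not, while their mature coding regions are closely related. The lines give the first 40 codons of the mature growth factor from the coding sequence of GENCODE M21 transcripts (mm10), 5′ to 3′ on the coding strand, with capitals for each G or C in the third position of a codon. Tgfb1 lies at chr7:25687002-25705077 on the plus strand and Tgfb3 at chr12:86056744-86079041 on the minus strand.
Tgfb1: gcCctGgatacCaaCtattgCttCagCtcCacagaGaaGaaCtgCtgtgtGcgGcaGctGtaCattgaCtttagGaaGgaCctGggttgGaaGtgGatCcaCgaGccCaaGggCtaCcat
Tgfb3: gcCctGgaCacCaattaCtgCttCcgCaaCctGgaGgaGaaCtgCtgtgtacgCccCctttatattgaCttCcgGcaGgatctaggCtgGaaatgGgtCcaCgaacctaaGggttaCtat
Over the 336 bases of the mature region, Tgfb1 shared 73.5% of bases with Tgfb3. G or C stood in the third position of 81.2% of the mature codons of Tgfb1 and 75.0% of those of Tgfb3. Over all positions the mature regions were close, at 57.4% and 57.1% GC. The GC content of the transcripts, which is the one used below, was 62.5% for Tgfb1, the highest of the tested members, and 53.0% for Tgfb3. GC content bears on the results below, because the 24-month libraries differed from the others in it.

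Each library held 14.7 to 21.2 M gene reads. The read-weighted mean of gene GC content lay between 54.6 and 56.2% in the 24-month libraries and between 50.7 and 52.1% in the other 9. The 24-month libraries also had 0.443 to 0.629% mitochondrial reads, against 1.65 to 3.12% in the other 9, and 17533 to 18513 genes detected, against 19539 to 20625. Their median correlation with the 3-month libraries was 0.678 to 0.802, against 0.942 to 0.988 for the other 9. At each of these extremes stood 24-month mouse 3, with 56.2% GC, 0.443% mitochondrial reads, 17533 genes and a correlation of 0.678. Mouse 3 of the 12-month group also stood apart from its group in several members named below. Its library had 51.0% GC, against 52.0 and 52.1% in the other 12-month mice, and 3.12% mitochondrial reads, against 1.95 and 1.96%. Levels are therefore given as CPM (reads of a gene scaled to a common library total, with TMM library sizes) and fold changes as log2 values ± SE from edgeR. Each fold change is followed by its value after a correction for GC content and gene length. For each library, genes' deviations from their means over all libraries were smoothed on GC content and length, and this trend was removed. An age change that itself follows GC content or length is removed with it, and the correction cannot tell these apart. A member was called higher or lower at an adjusted p under 0.05, and a fold change given without mention of the correction is uncorrected. Summed markers of alveolar epithelium, which define the labelled tissue, were 41296 to 53093 CPM at 24 months and 21444 to 27168 CPM at 3 months (5 of 8 genes called higher and 3 lower, but 0 and 4 with the correction). Sums for B and plasma cells were 1852 to 3445 CPM at 24 months against 165 to 248 CPM at 3 months (6 of 7 genes called higher, 5 with the correction). Those for smooth muscle and pericytes were 1802 to 4094 CPM at 24 months against 554 to 795 CPM at 3 months (7 of 8 higher and 1 lower, 5 and 1 with the correction). Sums for fibroblasts were 1155 to 1269 CPM at 24 months against 1798 to 2036 CPM at 3 months (3 of 9 genes higher and 6 lower, 0 and 6 with the correction). Heart muscle markers summed to 693 to 1133 CPM at 24 months against 312 to 584 CPM at 3 months (6 of 8 higher and 0 lower, 1 and 1 with the correction). Cartilage markers summed to 9.16 to 40.9 CPM against 4.18 to 4.92 CPM (3 of the 4 tested higher, 0 with the correction), with Matn1 and Col9a1 at 0 in the 24-month libraries. What part these shifts have in the members' changes was not tested.

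At 24 months against 3 months, Tgfb1, Smad3, Smad6, Acvr1b and Gdf10 were among the 11 members called higher, and most receptors, most receptor-activated SMADs, Tgfb2, Tgfbr3, Bmp2, Bmp4 and Bmp5 were among the 19 called lower. Of all genes tested, 38.2% were called higher and 44.6% lower, so calls in either direction were the rule in this comparison. The median log2 fold change of the 35 members was -0.97, against -0.29 over all genes tested. With the correction, 6 members were called higher and 12 lower, beside 30.0% and 27.0% of all genes, and the median was -0.09 against 0.02 over all genes. Without 24-month mouse 3 the corrected counts were 5 higher and 11 lower, beside 28.4% and 25.8% of all genes. Of the 30 members called without the correction, 11 (36.7%) were called in the same direction with it, against 46.9% of all called genes, and 4 (13.3%) in the opposite direction, against 10.7%. Called higher both ways were Tgfb1, Gdf10, Smad3 and Acvr1b, and called lower both ways were Tgfb2, Tgfbr3, Bmp2, Bmp4, Bmp5, Smad1 and Inhba. Of these, Inhba had 0 reads at 24 months and passed the filter on low counts only through the younger ages. The members that changed sign and kept a call were Bmp1 and Bmp6, higher without the correction and lower with it, and Bmpr2 and Smad5, lower without it and higher with it. Under a correction for GC content alone, Bmp1 (-0.22, edgeR adjusted p = 0.153), Smad5 (-0.21, edgeR adjusted p = 0.295) and Acvr1b (0.25, edgeR adjusted p = 0.152) were not called.

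**Figure D1:**
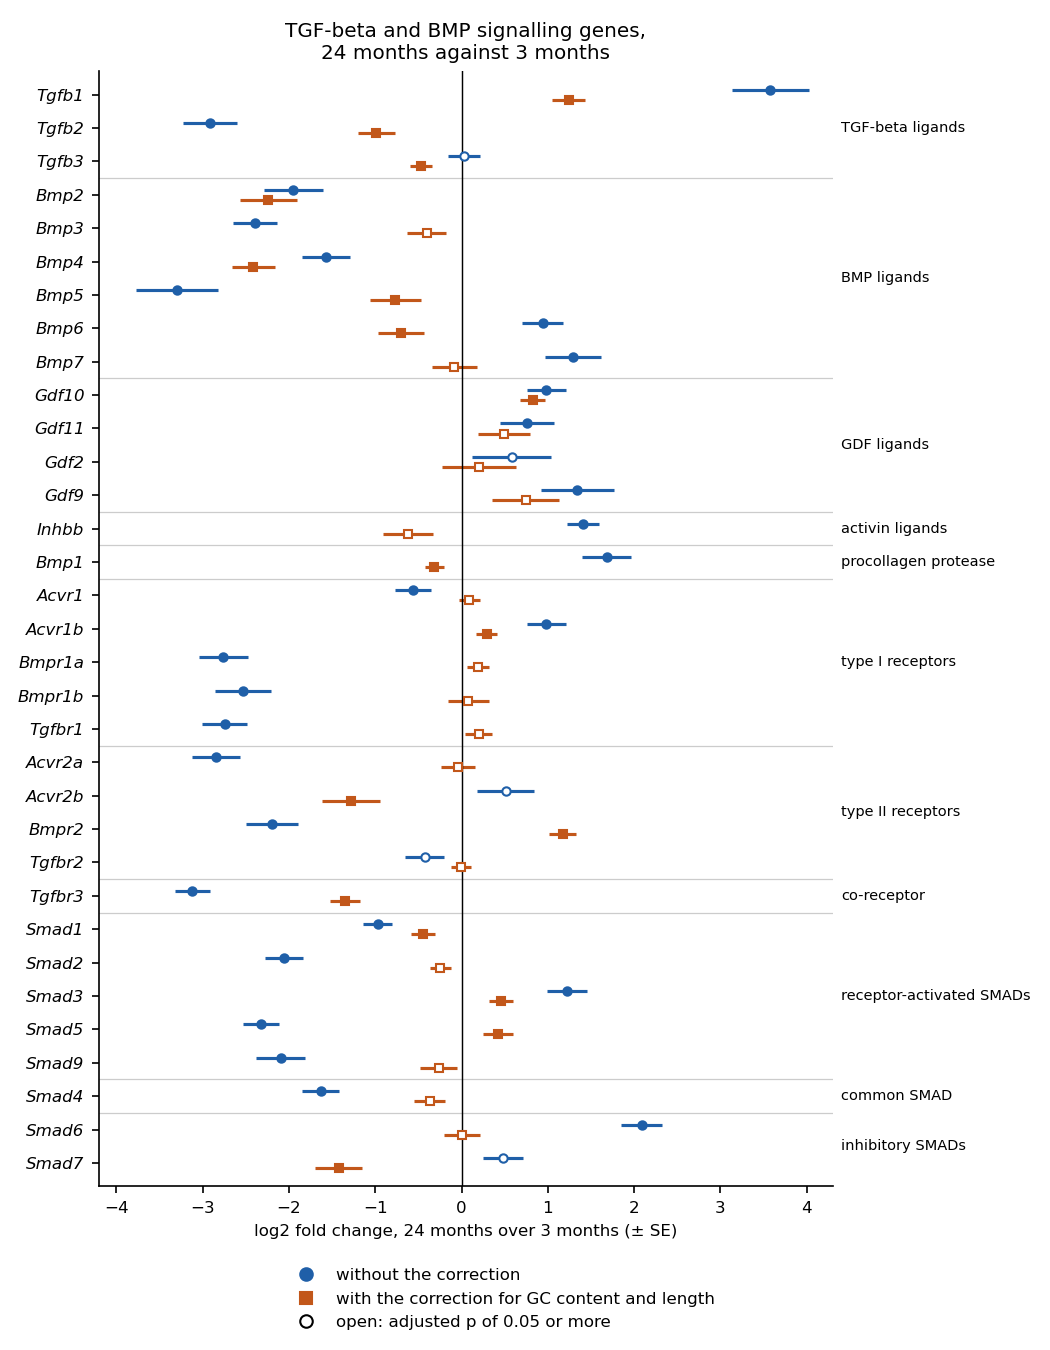
Log2 fold change at 24 months over 3 months (x axis, bars ± SE) of the 33 tested members with reads enough for a fitted fold (Inhba and Acvr1c are left out), grouped by role. Circles are without and squares with the correction for GC content and gene length, and open symbols have an adjusted p of 0.05 or more. Tgfb1 lay furthest to the right both ways, and the receptors Tgfbr1, Bmpr1a, Bmpr1b and Acvr2a lay far to the left without the correction and near 0 with it.

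Among the TGF-beta ligands, Tgfb1 rose and Tgfb2 fell at 24 months against 3 months, and Tgfb3 was called only with the correction, as lower. Tgfb1, the main isoform of immune cells, had 82.7, 74.1 and 65.9 CPM in the 3-month mice, 83.5, 115 and 71.0 CPM at 6 months, 120.5, 108 and 145 CPM at 12 months and 396, 521 and 1741 CPM at 24 months. Every 24-month mouse lay above every younger mouse, and mouse 3 of that group lay far above the other two. Its log2 fold change at 24 against 3 months was 3.58 ± 0.45, edgeR adjusted p = 2.69e-06, and without 24-month mouse 3 it was 2.63. With the correction it was 1.24 ± 0.19, edgeR adjusted p = 6.8e-05, and 0.99 with the correction and without that mouse (adjusted p = 8.71e-05).

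Tgfb2, an isoform with roles in heart and lung development, had 31.6, 27.9 and 29.0 CPM at 3 months, 29.7, 24.2 and 28.2 CPM at 6 months, 17.9, 14.7 and 24.2 CPM at 12 months and 5.84, 3.85 and 1.76 CPM at 24 months. The 24-month mice all lay below the others, and 12-month mouse 3 reached the range of the 6-month mice while the other 12-month mice lay below it. The fold change at 24 months was -2.92 ± 0.31, edgeR adjusted p = 6.87e-07, and -0.99 ± 0.21, edgeR adjusted p = 0.00115 with the correction. Tgfb3, which acts in lung and palate development, had 42.9, 32.1 and 32.7 CPM at 24 months and 35.8, 35.1 and 34.5 CPM at 3 months, and the groups overlapped. Its fold change was 0.03 ± 0.19, edgeR adjusted p = 0.879, and -0.47 ± 0.13, edgeR adjusted p = 0.00573 with the correction. Under the scaling by all gene reads it was -0.68, so a direction for Tgfb3 depends on how the libraries were scaled.

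Levels of different genes can be set side by side only per length, for which the deposited FPKM (reads scaled by gene length and by library reads) were used. Tgfb1 made up between 65.0 and 68.8% of the summed FPKM of the 3 TGF-beta ligands in the 3-month mice, 66.4 and 76.3% in the 6-month mice, 77.0 and 82.9% in the 12-month mice, and 92.9 and 98.8% in the 24-month mice. Tgfb2 made up 11.7 to 13.2%, 7.38 to 12.1%, 4.82 to 6.39% and 0.0459 to 0.631% at these ages. In these uncorrected shares the ages 3, 12 and 24 months did not overlap for either ligand, while 6 months overlapped with 3 months. TGF-beta1 protein is also carried by platelets, and summed platelet markers were 396 to 1021 CPM at 24 months against 105 to 202 CPM at 3 months (4 of 6 genes called higher, 1 with the correction). Whether blood content plays a part in the rise of Tgfb1 was not tested.

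**Figure D2:**
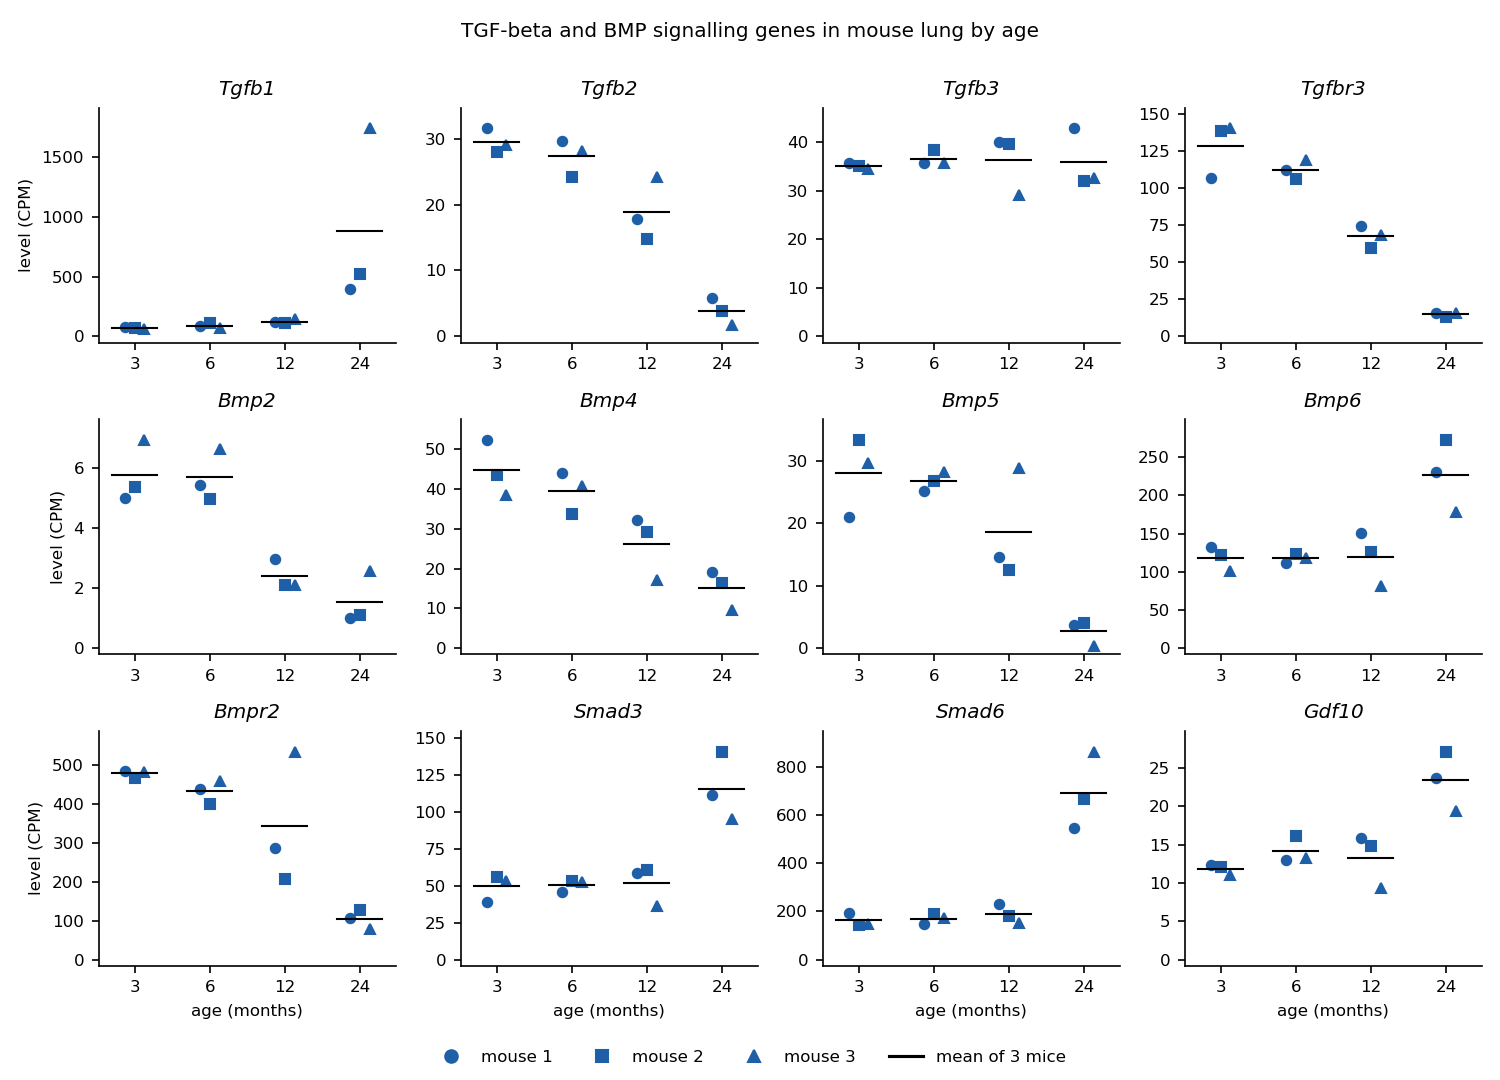
Level in CPM (y axis, linear, a different range in each panel) by age in months (x axis) for 12 members. Points are single mice, their shapes give the mouse number within an age, and short horizontal lines are means of 3 mice. Tgfb1, Smad6, Smad3 and Gdf10 were highest in the 24-month mice and Tgfb2, Tgfbr3, Bmp5 and Bmpr2 lowest, while Bmp2 was already lower at 12 months.

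Of the 10 BMP ligands, 6 were tested, and at 24 months 4 of them were called lower and 2 higher, or 4 lower and none higher with the correction. Bmp4 (chr14:46383520-46390669, minus strand), a ligand of lung branching and of the vessel wall, had 52.3, 43.5 and 38.4 CPM at 3 months, 43.9, 33.7 and 40.7 CPM at 6 months, 32.2, 29.1 and 17.0 CPM at 12 months and 19.2, 16.4 and 9.49 CPM at 24 months. Every 24-month mouse lay below every mouse of 3 and 6 months, and 12-month mouse 3 lay within the 24-month range. The fold change at 24 months was -1.57 ± 0.28, edgeR adjusted p = 7.86e-05, and -2.41 ± 0.25, edgeR adjusted p = 2.06e-06 with the correction, larger with it than without it. Bmp2 (chr2:133552159-133562885, plus strand), close kin of Bmp4, was low, with 5.004, 5.37 and 6.94 CPM at 3 months, 5.45, 4.99 and 6.65 CPM at 6 months, 2.99, 2.10 and 2.10 CPM at 12 months and 0.988, 1.09 and 2.58 CPM at 24 months. The 12-month and 24-month mice all lay below the mice of 3 and 6 months, and these older ages overlapped. The fold change of Bmp2 was -1.95 ± 0.34, edgeR adjusted p = 7.42e-05, and -2.24 ± 0.33, edgeR adjusted p = 5.17e-05 with the correction.

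Bmp5 (chr9:75775364-75900310, plus strand), a ligand of lung mesenchyme, had 3.70, 4.07 and 0.351 CPM at 24 months and 21.0, 33.4 and 29.8 CPM at 3 months. All 3 of the older mice lay below the younger ones, mouse 3 furthest. The fold change was -3.30 ± 0.47, edgeR adjusted p = 1.02e-05, and -0.77 ± 0.29, edgeR adjusted p = 0.0373 with the correction, where leaving out 24-month mouse 3 ended the call (-0.48, adjusted p = 0.0632). Bmp3, an atypical BMP that opposes other BMPs in bone, had 4.36, 5.16 and 2.93 CPM at 24 months and 18.4, 23.8 and 24.2 CPM at 3 months, with no overlap (-2.40 ± 0.25, edgeR adjusted p = 6.26e-07). With the correction it was no longer called (-0.41 ± 0.23, edgeR adjusted p = 0.138).

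Bmp6 (chr13:38345716-38499728, plus strand), an iron-regulated ligand made by endothelial cells, was the BMP ligand with the highest FPKM in each library and made up 88.2 to 90.2% of the summed FPKM of the 6 tested BMP ligands at 24 months, against 53.4 to 58.6% at 3 months, uncorrected for GC content. It had 230.3, 273 and 179 CPM at 24 months and 133, 122 and 101 CPM at 3 months, without overlap (0.94 ± 0.24, edgeR adjusted p = 0.00183), but was called lower with the correction (-0.70 ± 0.27, edgeR adjusted p = 0.0384). Without 24-month mouse 3 the corrected value was -0.38 and was not called (adjusted p = 0.0628), and without 3-month mouse 3 the uncorrected value was 0.62 and was not called (adjusted p = 0.0566). Bmp7, a ligand of kidney and epithelial development, had 3.29, 4.58 and 6.44 CPM at 24 months and 2.61, 1.67 and 1.47 CPM at 3 months (1.29 ± 0.33, edgeR adjusted p = 0.00177), and -0.09 ± 0.26, edgeR adjusted p = 0.796 with the correction. Bmp4 made up 5.58 to 8.57% of the summed FPKM at 24 months, against 23.4 to 27.0% at 3 months, likewise uncorrected.

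Of the 9 GDF ligands in the set, 4 were tested. Gdf10 (chr14:33923587-33935280, plus strand), a relative of Bmp3, had 23.7, 27.1 and 19.4 CPM at 24 months and 12.4, 12.1 and 11.1 CPM at 3 months, with no overlap. It rose without and with the correction (0.98 ± 0.22, edgeR adjusted p = 0.000744, and 0.82 ± 0.15, edgeR adjusted p = 0.000285), which at a GC content of 51.8% moved it little. Gdf11, a relative of myostatin, had 2.63, 4.07 and 2.93 CPM at 24 months and 1.65, 2.37 and 1.68 CPM at 3 months (0.76 ± 0.32, edgeR adjusted p = 0.0361), and 0.49 ± 0.30, edgeR adjusted p = 0.179 with the correction; its call was also lost in 8 of the 12 fits that leave out 1 mouse. Gdf9, known as an oocyte factor, had 0.905, 1.60 and 1.17 CPM at 24 months and 0.579, 0.440 and 0.421 CPM at 3 months (1.34 ± 0.42, edgeR adjusted p = 0.00819), and 0.74 ± 0.39, edgeR adjusted p = 0.116 with the correction; 3 of those fits lost its call. Gdf2, a circulating ligand made mainly in the liver, had 2.47, 1.74 and 0.351 CPM at 24 months and 0.827, 1.23 and 1.105 CPM at 3 months and was not called (0.58 ± 0.46, edgeR adjusted p = 0.243), but was called higher without 24-month mouse 3 (0.99).

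Of the 4 activin subunit genes, Inhbb and Inhba were tested. Inhbb, the activin B subunit, had 59.4, 60.9 and 57.9 CPM at 24 months and 22.5, 22.3 and 22.5 CPM at 3 months, with little spread within either age. It was called higher without the correction (1.41 ± 0.19, edgeR adjusted p = 4.87e-06) and had -0.62 ± 0.29, edgeR adjusted p = 0.0824 with it. Inhba, the activin A subunit, held 38 reads over the 3-month libraries, 37 at 6 months, 11 at 12 months and 0 at 24 months. Against a floor of 3 reads over the 24-month group, Inhba was at least 11.03-fold lower per library total at 24 months than at 3 months. With the TMM library sizes used for CPM this bound would be lower. Inhba was called lower without the correction (edgeR adjusted p = 0.000616) and with it (edgeR adjusted p = 0.0309). It passed the filter on low counts only through the younger ages and so had to differ, and these calls are descriptions. Bmp1, named among the BMPs but a procollagen C-protease of matrix assembly and no ligand, had 141, 177 and 372 CPM at 24 months and 67.7, 76.4 and 70.9 CPM at 3 months, with mouse 3 highest at the older age. It was called higher without the correction (1.68 ± 0.28, edgeR adjusted p = 5.13e-05; 1.15 without 24-month mouse 3) and lower with it (-0.32 ± 0.11, edgeR adjusted p = 0.0218), a call that the correction for GC content alone did not give.

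The type I receptors of the set, the kinases that phosphorylate SMADs, were called lower at 24 months in 5 of 6 cases, and in none with the correction. Tgfbr1, the type I receptor for TGF-beta, had 8.72, 8.80 and 6.44 CPM at 24 months and 43.5, 56.9 and 61.2 CPM at 3 months, far apart (-2.74 ± 0.26, edgeR adjusted p = 2.65e-07). With the correction it had 0.20 ± 0.15, edgeR adjusted p = 0.283. Bmpr1a, the broadly expressed BMP type I receptor, had 14.98, 12.4 and 8.43 CPM at 24 months and 75.4, 79.5 and 88.8 CPM at 3 months (-2.76 ± 0.29, edgeR adjusted p = 5.01e-07), and 0.19 ± 0.12, edgeR adjusted p = 0.197 with the correction. Both genes have low GC content (42.9% for Tgfbr1 and 43.2% for Bmpr1a). Bmpr1b, a further BMP type I receptor, had 1.56, 1.82 and 1.05 CPM at 24 months and 7.82, 8.80 and 9.73 CPM at 3 months (-2.53 ± 0.32, edgeR adjusted p = 2.91e-06, and 0.08 ± 0.24, edgeR adjusted p = 0.797 with the correction).

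Acvr1, a type I receptor shared by BMPs and activins, had 19.8, 16.5 and 11.5 CPM at 24 months and 22.7, 24.8 and 23.5 CPM at 3 months (-0.56 ± 0.21, edgeR adjusted p = 0.0187), and 0.09 ± 0.12, edgeR adjusted p = 0.534 with the correction. Without 24-month mouse 3 the uncorrected value was -0.38 and was not called (adjusted p = 0.0508). Acvr1c, a nodal and activin receptor, held 3 reads at 24 months and 46 at 3 months, a ratio of 0.0749 per library total (95% exact interval 0.0149 to 0.233, for counting error only), and its call was lost with the correction and without 24-month mouse 1 or 2. Acvr1b (chr15:101174067-101213679, plus strand), the activin type I receptor, was the exception, with 154, 165 and 143 CPM at 24 months and 74.3, 83.0 and 76.5 CPM at 3 months. It rose without and with the correction (0.98 ± 0.22, edgeR adjusted p = 0.00079, and 0.29 ± 0.12, edgeR adjusted p = 0.0481). At 12 months its mouse 3 was low, with 78.6, 74.5 and 40.4 CPM. At 24 months Acvr1b made up 77.2 to 83.9% of the summed FPKM of the type I receptors of the set. At 3 months it made up 33.4 to 37.0%. This share leaves out Acvrl1, which is not in the set, and carries no correction for GC content.

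Among the type II receptors, which bind ligand and activate type I receptors, Bmpr2 and Acvr2a were called lower and Tgfbr2 and Acvr2b were not called. Bmpr2 (chr1:59763400-59879014, plus strand), whose loss causes heritable pulmonary arterial hypertension in humans, had 485, 467 and 482 CPM at 3 months, 439, 399 and 459.6 CPM at 6 months, 287, 207 and 534 CPM at 12 months and 106, 127 and 79.7 CPM at 24 months. The 24-month mice all lay below the rest, and the 12-month mice were split, with mouse 3 above every 3-month mouse and the others below. The fold change at 24 months was -2.20 ± 0.30, edgeR adjusted p = 5.6e-06, and with the correction it was 1.17 ± 0.16, edgeR adjusted p = 2.24e-05, higher at 24 months. Bmpr2 has a GC content of 41.0% and a deposited gene length of 12899 bases, and its direction differed without and with the correction. A correction for GC content alone gave 0.39.

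Tgfbr2, the TGF-beta type II receptor, had the highest FPKM of the type II receptors at 3 months (77.3 ± 9.18 FPKM, SD, n = 3). It had 263, 265 and 177 CPM at 24 months and 289.7, 349 and 309 CPM at 3 months, with no overlap, but missed the call (-0.43 ± 0.23, edgeR adjusted p = 0.0918, and -0.01 ± 0.11, edgeR adjusted p = 0.961 with the correction). It was called lower in 7 of the 12 fits that leave out 1 mouse. Acvr2a, an activin and BMP type II receptor, had 3.87, 4.65 and 4.22 CPM at 24 months and 24.9, 33.1 and 34.0 CPM at 3 months (-2.85 ± 0.28, edgeR adjusted p = 3.12e-07), and -0.04 ± 0.20, edgeR adjusted p = 0.873 with the correction, at a GC content of 39.9%, the lowest of the tested members. Acvr2b, its close relative, had 3.87, 4.58 and 5.62 CPM at 24 months and 1.70, 3.74 and 4.42 CPM at 3 months, overlapping, and was lower with the correction only (0.51 ± 0.33, edgeR adjusted p = 0.16, and -1.28 ± 0.34, edgeR adjusted p = 0.00501 with it).

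Tgfbr3 (chr5:107106570-107289629, minus strand), or betaglycan, a co-receptor that presents TGF-beta2 and inhibins to the type II receptors, had the smallest adjusted p of the members at 24 months. It had 107, 138 and 140.2 CPM at 3 months, 111.9, 106 and 119 CPM at 6 months, 74.4, 59.7 and 68.6 CPM at 12 months and 15.8, 12.9 and 15.7 CPM at 24 months. The 12-month mice lay below all younger mice and above all 24-month mice, mouse 3 included. The fold change at 24 months was -3.12 ± 0.20, edgeR adjusted p = 3.78e-08, and -1.35 ± 0.17, edgeR adjusted p = 1.45e-05 with the correction, or -1.60 with the correction and without 24-month mouse 3. Tgfbr3 and Tgfb2 were lower at 24 months both ways, and the fibroblast marker sum given above was lower as well. A link between these was not tested.

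The receptor-activated SMADs were called lower in 4 of 5 cases at 24 months, and Smad3 was called higher. Smad3 (chr9:63646767-63757994, minus strand), which carries TGF-beta and activin signals, had 39.1, 56.1 and 53.2 CPM at 3 months, 45.7, 52.8 and 52.4 CPM at 6 months, 58.7, 60.2 and 36.5 CPM at 12 months and 111, 140.5 and 94.97 CPM at 24 months, with every 24-month mouse above the others. It rose without and with the correction (1.22 ± 0.23, edgeR adjusted p = 0.000151, and 0.46 ± 0.14, edgeR adjusted p = 0.0108). Smad2, its partner in the same branch, had 7.74, 7.93 and 4.57 CPM at 24 months and 28.1, 26.9 and 30.2 CPM at 3 months (-2.06 ± 0.22, edgeR adjusted p = 6.57e-07), and -0.25 ± 0.12, edgeR adjusted p = 0.0958 with the correction. The share of Smad3 in the summed FPKM of the 5 receptor-activated SMADs was 67.3 to 74.3% at 24 months, against 19.4 to 25.2% at 3 months, uncorrected for GC content.

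In the BMP branch, Smad1 (chr8:79338395-79399518, minus strand) had 14.7, 15.1 and 15.2 CPM at 24 months and 30.3, 29.7 and 28.1 CPM at 3 months, with little spread at either age. It fell without and with the correction (-0.97 ± 0.17, edgeR adjusted p = 6.69e-05, and -0.45 ± 0.14, edgeR adjusted p = 0.0123). Smad5 had 22.1, 14.3 and 14.4 CPM at 24 months and 79.4, 84.4 and 91.0 CPM at 3 months and changed sign (-2.32 ± 0.20, edgeR adjusted p = 1.32e-07, and 0.42 ± 0.17, edgeR adjusted p = 0.0486 with the correction). Leaving out 24-month mouse 3 gave a corrected value of 0.28 and no call (adjusted p = 0.164). Smad9 had 3.62, 3.34 and 1.76 CPM at 24 months and 10.9, 13.8 and 13.3 CPM at 3 months (-2.09 ± 0.28, edgeR adjusted p = 5.76e-06, and -0.27 ± 0.21, edgeR adjusted p = 0.291 with the correction). With GC content alone it had -0.78 and a call (adjusted p = 0.00789). Of these, Smad1 was called lower without and with the correction for GC content and gene length. Smad4, the common partner of both branches, had 23.1, 19.8 and 22.1 CPM at 24 months and 58.2, 69.4 and 73.6 CPM at 3 months (-1.63 ± 0.21, edgeR adjusted p = 4.1e-06, and -0.37 ± 0.19, edgeR adjusted p = 0.0996 with the correction). It was called lower with the correction and without 24-month mouse 3 (-0.56, adjusted p = 0.0154). It was also called with GC content alone (-0.50, adjusted p = 0.0353).

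Of the inhibitory SMADs, Smad6 was called higher without the correction and Smad7 was called lower with it. Smad6 (chr9:63953076-64022059, minus strand), which inhibits BMP signals mostly, had 547, 665 and 863 CPM at 24 months and 196, 145 and 147 CPM at 3 months, far apart (2.09 ± 0.24, edgeR adjusted p = 1.16e-06). With the correction the difference was 0.01 ± 0.21, edgeR adjusted p = 0.971. Smad7, which inhibits TGF-beta and BMP receptors, had 130.4, 129.9 and 139.6 CPM at 24 months and 101, 92.5 and 93.2 CPM at 3 months, with no overlap and no call (0.48 ± 0.23, edgeR adjusted p = 0.0674), and was lower with the correction (-1.42 ± 0.27, edgeR adjusted p = 0.000528). Without 12-month mouse 3 the uncorrected value of Smad7 was 0.48 and was called higher (adjusted p = 0.00997). Their GC contents are 61.4% for Smad6 and 58.8% for Smad7.

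The members' uncorrected fold changes at 24 months followed the GC content of their transcripts. Across the 35 members, the correlation of GC content with the log2 fold change was 0.86 (Pearson) and 0.88 (Spearman), and over 15949 tested genes with a GC value it was 0.79 (Pearson); genes share the same 12 libraries and are not independent. The correction removes the trend with GC content and so had to lower this correlation. With it, Pearson's r was 0.05 for the members and 0.06 for all these genes. All 8 members under 45% GC and all 7 from 45 to 50% were called lower. Of the 12 members from 50 to 55%, 5 were called higher and 4 lower, and of the 8 at 55% or more, 6 were called higher and none lower. Shares of all genes called in these bands are not given, so the band counts describe the members only. The fold changes of all genes followed GC content as well. Bmp2 at 52.5% and Bmp4 at 53.9% lay below the other members of similar GC content, and stayed lower with the correction.

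**Figure D3:**
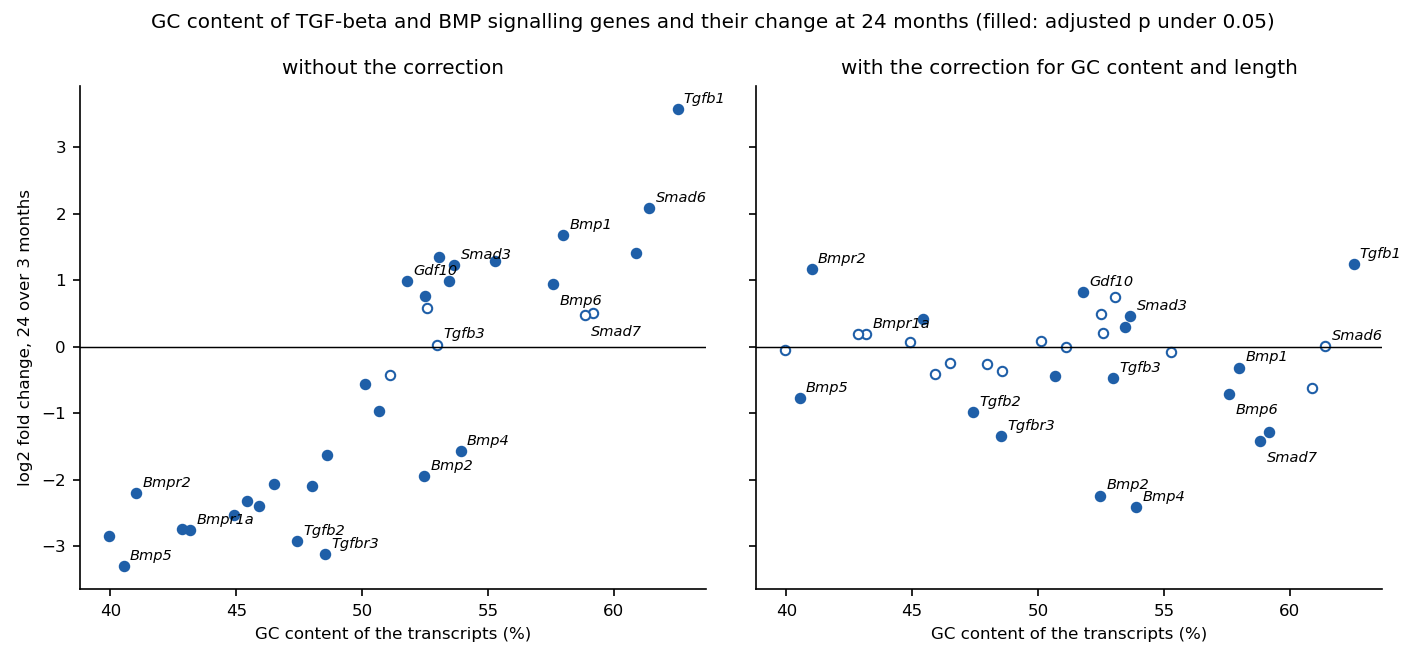
GC content of the transcripts in % (x axis) against the log2 fold change at 24 months over 3 months (y axis) for 33 tested members (Inhba and Acvr1c are left out), without the correction on the left and with it on the right. Filled points had an adjusted p under 0.05. Points rise from left to right without the correction (Pearson's r 0.86 over all 35), and with it Bmp4 and Bmp2 lay lowest and Tgfb1 and Bmpr2 highest.

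At 12 months against 3 months, 4 members were called lower (Bmp2, Bmp3, Tgfbr3 and Acvr2a) and none higher, beside 8.87% of all genes called lower and 6.30% higher. The members' median log2 fold change was -0.29, against -0.02 over all genes. Bmp2 was at 2.99, 2.10 and 2.10 CPM at 12 months, against 5.004, 5.37 and 6.94 CPM at 3 months (-1.26 ± 0.31, edgeR adjusted p = 0.0191; with the correction -1.14 ± 0.29, edgeR adjusted p = 0.0168). Bmp3 had 14.1, 12.0 and 9.16 CPM at 12 months and 18.4, 23.8 and 24.2 CPM at 3 months (-0.91 ± 0.23, edgeR adjusted p = 0.0212; with the correction -0.60 ± 0.20, edgeR adjusted p = 0.0493). In both genes every 12-month mouse lay below every 3-month mouse.

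Tgfbr3 had -0.93 ± 0.18 at 12 months (edgeR adjusted p = 0.00793), and -0.43 ± 0.16, edgeR adjusted p = 0.0717 with the correction. Acvr2a had 15.3, 12.4 and 26.5 CPM at 12 months and 24.9, 33.1 and 34.0 CPM at 3 months, overlapping through 12-month mouse 3 (-0.77 ± 0.25, edgeR adjusted p = 0.0497), and -0.22 ± 0.17, edgeR adjusted p = 0.377 with the correction. After that correction Bmp2, Bmp3, Bmp4 (-0.94 ± 0.23, edgeR adjusted p = 0.0139) and Acvr2b (-1.04 ± 0.34, edgeR adjusted p = 0.0494) were called lower, again with none higher, beside 8.41% of all genes called lower and 9.97% higher. Bmp4 was not called without the correction (-0.78 ± 0.27, edgeR adjusted p = 0.0606).

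The number of calls at 12 months changed with the libraries in the fit. In a fit without the 24-month libraries, 9 members were called lower (Acvr2a, Bmp2, Bmp3, Bmp4, Smad1, Smad4, Smad5, Tgfb2 and Tgfbr3) and 2 higher (Inhbb and Tgfb1), beside 17.0% of all genes called lower and 18.8% higher. Tgfb1 then had a log2 fold change of 0.75 (edgeR adjusted p = 0.0103), on levels of 120.5, 108 and 145 CPM at 12 months and 82.7, 74.1 and 65.9 CPM at 3 months, which did not overlap. Without 3-month mouse 2 no member was called lower at 12 months, and without 3-month mouse 3 or 12-month mouse 2 there was 1. Without 24-month mouse 3 there were 9. Shares of all genes in these fits that leave out 1 mouse are not given, so their counts describe the members only.

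**Figure D4:**
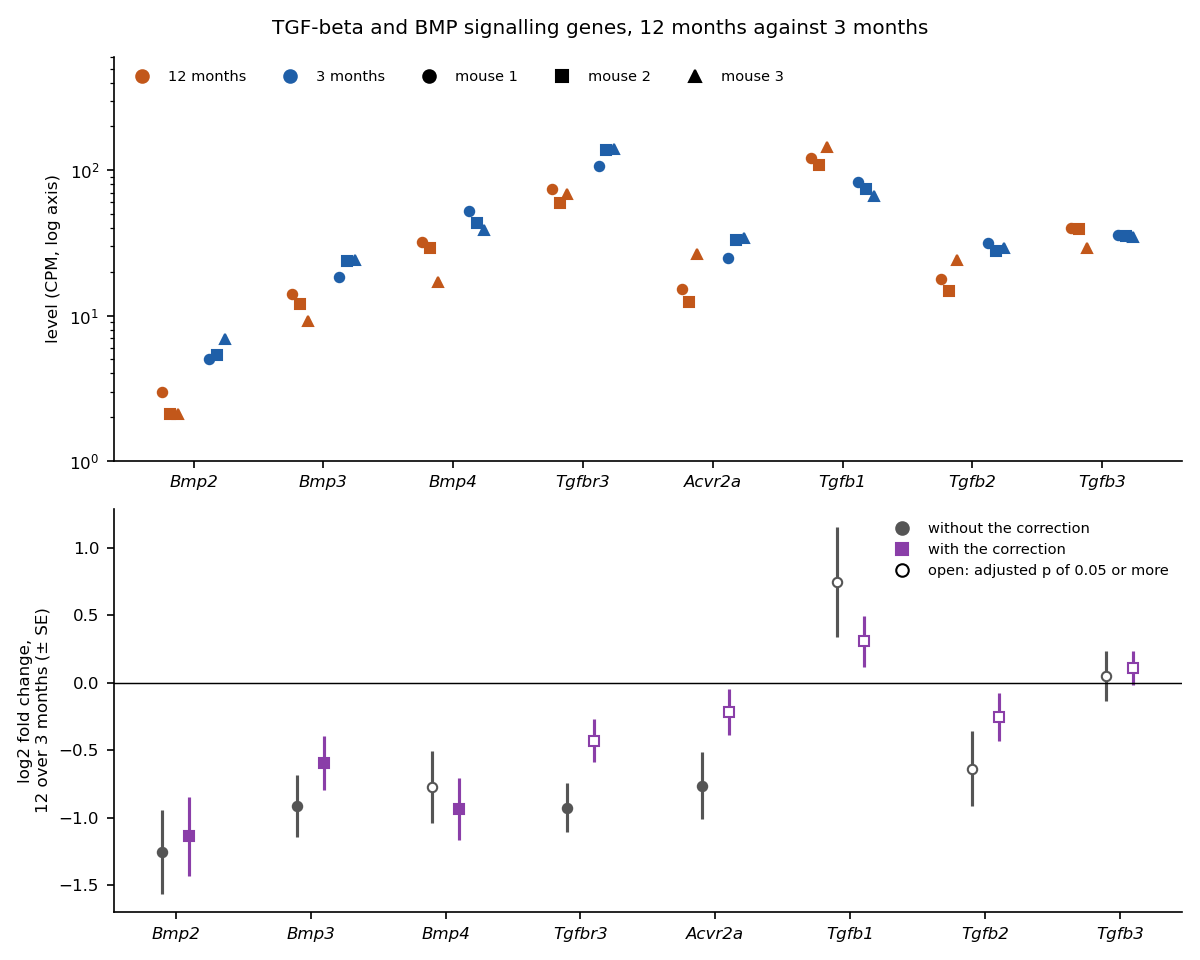
Top, level in CPM on a log axis for 8 members in the 12-month mice (left of each pair) and the 3-month mice (right), with shapes for single mice. Bottom, log2 fold change at 12 over 3 months (± SE) without the correction (circles) and with it (squares), open where the adjusted p was 0.05 or more. Bmp2, Bmp3, Bmp4 and Tgfbr3 lay lower in all 3 of the 12-month mice, while 12-month mouse 3 lay apart from its group in Acvr2a and Tgfb2.

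At 6 months against 3 months no member was called by edgeR, 0 members had an unadjusted p under 0.05, beside 1.66% of all genes, and DESeq2 called none, beside 0.0374%; over all genes edgeR called 0% higher and 0% lower. The largest uncorrected difference among members with over 100 reads at each age was that of Bmpr1b, with 12.3, 11.4 and 14.1 CPM at 6 months and 7.82, 8.80 and 9.73 CPM at 3 months (0.52 ± 0.27, edgeR adjusted p = 1). At 12 months against 6 months edgeR called no member, beside 0.480% of all genes higher and 1.55% lower; 9 members had an unadjusted p under 0.05, beside 24.0% of all genes, and DESeq2 called 3, beside 10.1%, shares near those of the 35 members. With the correction Bmp2 was lower (-1.14 ± 0.29, edgeR adjusted p = 0.0353), beside 3.23% of all genes lower and 3.26% higher, and 0 members higher.

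At 24 months against 12 months, 13 members were called higher and 17 lower, beside 37.3% and 42.5% of all genes. With the correction 4 were higher (Acvr1b, Bmpr2, Gdf10 and Tgfb1) and 5 lower (Tgfb2, Tgfbr3, Bmp4, Bmp2 and Tgfb3), beside 21.2% of all genes in each direction. Tgfb1 had 2.83 ± 0.43, edgeR adjusted p = 2.93e-05, and 0.94 ± 0.19, edgeR adjusted p = 0.00104 with the correction. Bmp4 had -0.79 ± 0.27, edgeR adjusted p = 0.0153, and -1.47 ± 0.24, edgeR adjusted p = 0.000231 with the correction. Some difference among the 4 ages was called for 32 of the 35 members, beside 84.6% of all genes; Tgfb3, Tgfbr2 and Gdf2 were the exceptions. Comparisons against 3 months share the 3-month mice, and those with 12 months share the 12-month mice.

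Genes that handle the ligands outside the cell moved in both directions at 24 months against 3 months. Of 19 tested genes of latent TGF-beta storage and activation, 12 were called higher and 7 lower (median 1.96), beside 38.2% and 44.6% of all genes. With the correction these were 7 and 6 (median 0.24), beside 30.0% and 27.0%. Nrros, which tethers latent TGF-beta on myeloid cells, had 97.0, 125 and 121 CPM at 24 months and 26.4, 25.0 and 23.2 CPM at 3 months (2.20 ± 0.20, edgeR adjusted p = 1.88e-07; with the correction 0.86 ± 0.16, edgeR adjusted p = 0.000339). Itgb6, the integrin subunit by which epithelium activates latent TGF-beta, had 7.49, 4.58 and 3.04 CPM and 41.1, 36.4 and 34.5 CPM (-2.87 ± 0.30, edgeR adjusted p = 5.36e-07; with the correction -0.61 ± 0.20, edgeR adjusted p = 0.0189), for 24 and 3 months. Itgb5 rose (1.96 ± 0.21; with the correction 0.32 ± 0.12, edgeR adjusted p = 0.0328), and Itgav, the alpha subunit shared by these integrins, was lower without the correction (-2.99 ± 0.27) and had -0.03 ± 0.14, edgeR adjusted p = 0.868 with it.

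A list of secreted antagonists and binding proteins also held the protease Tll1. Of the 20 tested genes of this list, 10 were called higher and 10 lower, beside 38.2% and 44.6% of all genes. With the correction these were 4 and 7, beside 30.0% and 27.0%. Twsg1, Crim1 and Tll1, among those with the smallest p, were lower both ways. Twsg1, a BMP-binding partner of chordin, had -3.42 ± 0.23 and, with the correction, -1.52 ± 0.12. Crim1, which binds BMPs at the cell surface, had 41.9, 41.4 and 35.0 CPM at 24 months and 135, 177 and 153 CPM at 3 months (-1.98 ± 0.20 and -1.88 ± 0.20). Tll1, a protease that cleaves chordin and so is no antagonist itself, had -3.79 ± 0.40 and -2.45 ± 0.40. Crim1 and Tll1 were also called lower at 12 months, both ways (-0.76 ± 0.19, edgeR adjusted p = 0.0167 for Crim1 and -1.04 ± 0.27, edgeR adjusted p = 0.0182 for Tll1 with the correction). Sost, a BMP and WNT antagonist, was higher at 12 months, with 2.25, 1.55 and 2.16 CPM against 0.786, 0.484 and 0.526 CPM at 3 months (with the correction 1.37 ± 0.31, edgeR adjusted p = 0.00947).

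Of 11 tested co-receptors and further family members, 7 were called higher and 2 lower, beside 38.2% and 44.6% of all genes. With the correction these were 4 and 1, beside 30.0% and 27.0%. Eng, or endoglin, the TGF-beta and BMP co-receptor of endothelium, had 1626, 2164 and 3836 CPM at 24 months and 418, 399 and 366 CPM at 3 months, mouse 3 highest (2.69 ± 0.28, edgeR adjusted p = 5.3e-07; with the correction 0.73 ± 0.13, edgeR adjusted p = 0.000191). Amhr2, the anti-Müllerian hormone receptor, also rose both ways (2.69 ± 0.32; with the correction 0.77 ± 0.15, edgeR adjusted p = 0.000661). Lefty1 and Rgma were called without the correction (1.98 ± 0.26 and 2.53 ± 0.35) and not with it. Endothelial markers summed to 3894 to 5971 CPM at 24 months against 2837 to 3127 CPM at 3 months (3 of 8 genes called higher and 5 lower, 1 and 3 with the correction), and their part in Eng was not tested. Of 20 intracellular regulators of SMADs, 7 were called higher and 12 lower, and 5 and 6 with the correction, beside the same shares of all genes. Smurf2 (-0.89 ± 0.14, edgeR adjusted p = 6.55e-05), Skil (-0.52 ± 0.14, edgeR adjusted p = 0.00656), Rnf111 (-0.62 ± 0.20, edgeR adjusted p = 0.0162) and Tob1 (-1.01 ± 0.16, edgeR adjusted p = 0.000125), given here with the correction, were lower both ways. Smurf2 and Rnf111 are ubiquitin ligases of the pathway, and Skil and Tob1 repress SMAD activity.

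Genes that TGF-beta induces in many cells did not move together. Of 20 tested, 10 were called higher and 7 lower at 24 months, beside 38.2% and 44.6% of all genes. With the correction these were 7 and 11, beside 30.0% and 27.0% (median -0.53 with it, 0.42 without). Tgfbi, a matrix protein named for its induction by TGF-beta, had 235, 367 and 381 CPM at 24 months and 82.8, 75.6 and 76.3 CPM at 3 months (2.06 ± 0.22, edgeR adjusted p = 5.29e-07; with the correction 1.55 ± 0.19, edgeR adjusted p = 8.46e-06). Lox, which crosslinks collagen, had 5.68, 4.36 and 2.69 CPM and 50.5, 61.1 and 60.3 CPM for these ages (-3.73 ± 0.31, edgeR adjusted p = 8.7e-08; with the correction -1.02 ± 0.15, edgeR adjusted p = 4.96e-05). Snai2, a mesenchymal transcription factor, fell as well (-3.84 ± 0.35; with the correction -1.70 ± 0.36, edgeR adjusted p = 0.000952). Skil, a feedback repressor that is also in the list of regulators, was given above. Named after their values were seen, Acta2, Cdkn1a, Ctgf, Snai1 and Tgif1 were among the other genes higher both ways, and Cdkn2b, Col3a1, Nox4 and Postn the other genes lower both ways. Acta2 is a smooth muscle gene, and the smooth muscle and pericyte sum, of which it is a part, was higher too. Col3a1 (-1.84 ± 0.15, edgeR adjusted p = 3.46e-07 with the correction) and Postn (-1.33 ± 0.29, edgeR adjusted p = 0.0013 with it) are fibroblast matrix genes. Other genes of the list went otherwise. Col1a1, with 516, 560 and 1120 CPM at 24 months and 241, 273 and 225 CPM at 3 months, was called higher without the correction and lower with it. Tagln, with 167, 135 and 132 CPM and 158, 110 and 88.3 CPM for these ages, overlapped and was not called. Both were also named after their values were seen.

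The same list held calls at 12 months against 3 months, with 1 gene higher and 5 lower, beside 6.30% and 8.87% of all genes. With the correction these were again 1 and 5, beside 9.97% and 8.41%. Snai2 had 2.68, 2.32 and 2.28 CPM at 12 months and 10.9, 8.49 and 6.84 CPM at 3 months (-1.84 ± 0.28, edgeR adjusted p = 0.00286; with the correction -1.54 ± 0.26, edgeR adjusted p = 0.00217). Col3a1, a fibrillar collagen, had 213, 185 and 119 CPM and 441, 505 and 396 CPM for these ages, without overlap (-1.38 ± 0.23, edgeR adjusted p = 0.00396; with the correction -1.17 ± 0.15, edgeR adjusted p = 0.000617). Lox (-0.83 ± 0.13, edgeR adjusted p = 0.00155, with the correction) was lower and Acta2 (0.75 ± 0.22, edgeR adjusted p = 0.0277, with the correction) higher at 12 months. Of the regulators, Rnf111 was lower at 12 months, with 15.4, 15.8 and 13.3 CPM at 12 months and 34.9, 42.1 and 39.9 CPM at 3 months (-1.39 ± 0.20, edgeR adjusted p = 0.00207; with the correction -0.91 ± 0.17, edgeR adjusted p = 0.00408).

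Of 14 tested genes that BMP induces in many cells, 8 were called higher and 4 lower at 24 months, beside 38.2% and 44.6% of all genes. With the correction these were 3 and 1, beside 30.0% and 27.0%. Atoh8, a BMP target of endothelium, had 73.3, 67.8 and 129.9 CPM at 24 months and 18.5, 15.3 and 17.3 CPM at 3 months (2.41 ± 0.25, edgeR adjusted p = 4.46e-07), and 0.29 ± 0.15, edgeR adjusted p = 0.115 with the correction. Smurf1 (1.70 ± 0.23) and Gata2 (1.67 ± 0.22) were called without the correction and not with it, and Ptgs2, the prostaglandin synthase, was lower both ways (-3.87 ± 0.43; with the correction -1.27 ± 0.30, edgeR adjusted p = 0.00206). Of the Id genes, the usual readout of BMP signalling and named here after their values were seen, Id1 and Id3 were called higher and Id2 and Id4 lower without the correction. With it Id1 had -0.27 ± 0.15, edgeR adjusted p = 0.122, Id2 -0.07 ± 0.13, edgeR adjusted p = 0.639 and Id3 0.22 ± 0.14, edgeR adjusted p = 0.187, and Id4 was higher (0.85 ± 0.25, edgeR adjusted p = 0.0099).

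The 11 members not tested were Bmp8a, Bmp8b, Bmp10, Bmp15, Gdf1, Gdf3, Gdf5, Gdf6, Gdf7, Inhbc and Inhbe. Bmp10, a heart ligand, Gdf1, Inhbc and Inhbe had 0 reads in all 12 libraries. Gdf3 held 17 reads over the 24-month libraries and 2 over the 3-month libraries, a ratio of 9.76 per library total (95% exact interval 2.32 to 87.1), with 0.247, 0 and 1.64 CPM in the 24-month mice. A member that passed the filter on low counts only through the ages where it was high, such as Inhba, had to differ, so counts over the tested members are descriptions. In the authors' deposited table, 42 members had an adjusted p at 24 months against 3 months, with 14 higher and 19 lower under 0.05, beside 33.2% and 36.2% of all genes with an adjusted p there. The log2 fold changes in the authors' deposited table were 3.52 for Tgfb1, -2.82 for Tgfb2 and -3.02 for Tgfbr3. In the authors' deposited table at 12 months against 3 months, 2 members were higher and 9 lower of 37, beside 13.7% and 13.5% of all genes, and at 6 months none of 35, beside 0.101% higher and 0.0252% lower.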

How the data were processed

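RNA-seq of lungs from 12 mice was analysed from the deposited table. The raw read counts per gene were deposited by the authors, unnormalized per the file headers, and the deposited FPKM values are scaled by gene length and library reads, per the file headers. The authors' log2 fold changes, p-values and adjusted p-values against 3 months are in the same deposited table; its columns of scaled reads per age were not used. TopHat, STAR 2.5, HTSeq 0.6.1 and the build mm10 are named in the submitters' processing notes, with no roles; no source used here says whether counting used strand, so reads of a gene and of an overlapping antisense gene, or of a near-identical copy, could not be told apart.

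Counts were tested with edgeR 4.0.16 (robust quasi-likelihood F test, TMM, filterByExpr by age, all 12 libraries, Benjamini-Hochberg adjustment over 16042 genes; R 4.3.3), with limma 3.58.1 loaded by edgeR. The SE is the absolute log2 fold change over the square root of F. The correction for GC content and gene length subtracts from each library a smooth of its genes' deviations in log2 CPM from their means over the libraries. It was fitted with mgcv 1.9.3 (basis size 30) and run on 15949 genes, with GC content from GENCODE M21 transcripts (97.8% of gene IDs matched). DESeq2 1.42.0, other scalings and filters, fits that leave out mice, and fits with the mouse number as a block were alternatives, and the fits were tested on simulated data. The members, lists and tests were chosen with earlier results of these data known. Members were all open to naming; of each pathway list the 4 genes with the smallest p per comparison were named, and others are marked as chosen after their values were seen, as were the list genes named at 12 months. Some genes stand in more than 1 list. Some list genes and a sequence are not reported here. The mouse numbers did not pair the samples: over 18 same-number pairs the median correlation of deviations was -0.05, and 4 were over 0.1. Each library is 1 mouse, so p-values measure the spread between these mice. Intervals and floors cover counting error only.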

Additional observations from a re-analysis of the deposited data

How the results depend on the processing

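Counts of members called are compared here with 11 higher and 19 lower at 24 against 3 months, 0 and 4 at 12 against 3 months, 0 and 0 at 12 against 6 months, 13 and 17 at 24 against 12 months, and 32 for any age. The correction for GC content and gene length gave 6 higher and 12 lower at 24 against 3 months, 1 lower at 12 against 6 months, 4 higher and 5 lower at 24 against 12 months, and 16 for any age. The same without 24-month mouse 3, chosen after seeing the data, gave 5 and 11 (beside 28.4% and 25.8% of all genes), 1 and 7 at 12 against 3 months, 3 lower at 12 against 6 months, 6 and 5 at 24 against 12 months, and 18. A correction for GC content alone gave 4 higher and 13 lower at 24 against 3 months, and 7 lower at 12 against 3 months. It gave 2 lower at 12 against 6 months, 5 and 6 at 24 against 12 months, and 14 for any age. DESeq2 gave 1 higher and 5 lower at 12 against 3 months and 3 lower at 12 against 6 months. Fits on only the 6 libraries compared gave 1 higher and 5 lower at 12 against 3 months and 2 lower at 12 against 6 months. At 12 against 6 months a mean CPM of at least 1 gave 2 lower and no filter gave 1. Without the 24-month libraries there were 2 higher and 9 lower at 12 against 3 months and 3 lower at 12 against 6 months. Scaling by all gene reads, chosen after seeing the data, moved the median log2 fold change of all genes at 24 against 3 months by -0.71 (RLE size factors by 0.13). It gave 4 higher and 21 lower there, and 5 higher and 21 lower at 24 against 12 months. Leaving out 1 mouse at a time gave 0 to 2 higher and 0 to 9 lower at 12 against 3 months, and 0 to 5 lower at 12 against 6 months. The mouse number as a replicate block gave 11 higher and 19 lower at 24 against 3 months and moved no count past 1.5 times. The block with the correction gave 4 higher and 13 lower there, 2 lower at 12 against 6 months, 4 and 7 at 24 against 12 months, and 15 for any age. The cause of these shifts was not tested. Where no share of all genes under the same setting stands here or above, a count describes the members only.

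At 24 against 3 months the log2 fold change changed sign with the correction for GC content and gene length for Acvr1 0.092, Acvr1c 0.14, Acvr2b -1.28, Bmp1 -0.32, Bmp6 -0.70, Bmp7 -0.086, Bmpr1a 0.19, Bmpr1b 0.079, Bmpr2 1.17, Inhbb -0.62, Smad5 0.42, Smad7 -1.42, Tgfb3 -0.47 and Tgfbr1 0.20. Without 24-month mouse 3 these were Acvr1 0.17, Acvr2b -1.12, Bmp1 -0.41, Bmp6 -0.38, Bmp7 -0.18, Bmpr1a 0.14, Bmpr1b 0.072, Bmpr2 0.99, Inhbb -0.26, Smad5 0.28, Smad7 -1.15, Tgfb3 -0.43 and Tgfbr1 0.087. With GC content alone they were Acvr2b -1.39, Bmp1 -0.22, Bmp6 -0.70, Bmp7 -0.014, Bmpr2 0.39, Inhbb -0.51, Smad7 -1.34 and Tgfb3 -0.53. With the block and the correction they were Acvr1 0.085, Acvr1c 0.12, Acvr2b -1.23, Bmp1 -0.32, Bmp6 -0.76, Bmp7 -0.053, Bmpr1a 0.20, Bmpr1b 0.098, Bmpr2 1.16, Inhbb -0.70, Smad5 0.42, Smad6 -0.0079, Smad7 -1.47, Tgfb3 -0.48 and Tgfbr1 0.21. With scaling by all gene reads it was Tgfb3 -0.68. The alternative on log values with a pseudocount was not run, since the table held counts. At 24 months, Inhba and Acvr1c were limited by depth.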
